A study of Homo sapiens with 4 samples.

Results

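The 9 PAX genes encode transcription factors that bind DNA through a paired domain, and they were examined for macroH2A1, a histone H2A variant with a large macro domain, in human lung fibroblasts. The genes were taken by name, each as its annotated span on hg19 plus 50 kb on either side, here called its window. They are 9 of the 19660 protein-coding genes whose windows could be measured, and all 9 were measured. The cells were IMR90, a strain of primary fetal lung fibroblasts without any treatment or genetic change given in the labels. The series holds 4 samples: 2 macroH2A1 ChIP samples, called biological replicates in the design text, and 2 inputs, which enter only as the denominator of the deposited ratio. With a single ChIP group there is no comparison between groups to test, so each value is given per replicate, with the SD of the 2, and no p-value is given. Gene expression was not measured in these files, and a ratio from a population cannot tell part of the cells at a high level from all cells at a lower one.

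PAX proteins set up organs in the embryo, and most of their genes are silent in adult tissues that they do not maintain. They fall into 4 subfamilies by their domains: PAX1 and PAX9 lack a homeodomain, PAX2, PAX5 and PAX8 have a partial one, and the PAX3 with PAX7 and PAX4 with PAX6 pairs have a complete one. MacroH2A1 is known to occupy broad domains, often over genes that are not transcribed, and on the inactive X chromosome. None of the 9 genes lies on chromosome X.

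The measured quantity was the log2 ratio of ChIP over input that the authors deposited for each segment of the genome. A window's value is the mean of that ratio over its bases, and 0 is the zero of the deposited scale. How the authors scaled ChIP to input is not known, so a value above or below 0 is relative within a library. A segment counted as enriched at a log2 ratio above 0 with a −log10 p of at least 2, and a base counted as covered when it lay in an enriched segment of both replicates. The sidedness of that p-value is not documented. Some segments with a ratio below 0 also carry a high value (-0.46 with 6.08 in the PAX4 window of replicate 1). In the same window and replicate, the segment at -2.14 carries 0. The p-value was therefore used only together with the sign of the ratio. In replicate 1, the segments over most of the PAX2 gene (-0.11 with 2.26) and over the PAX6 start (-0.46 with 2.63) reached the p cutoff. They counted as not enriched by the sign alone, and no limit below 0 was tried. Replicate 1 was cut more finely than replicate 2: the 9 windows held 43 segments in replicate 1 and 18 in replicate 2. Of assayed sequence, 2788 Mb lay in replicate 1 and 2756 Mb in replicate 2. Read depth is not in the files, so the counting error is unknown.

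The start sites of PAX5, PAX8 and PAX4 are shown because every annotated coding transcript of these genes began in enriched sequence of both replicates. That of PAX3 is shown because none of its did, which was also true of PAX1, PAX7 and PAX9. Each line gives the 250 bases before the start of the canonical transcript, read from GRCh37 (hg19) 5′ to 3′ on the gene's strand, with each CpG in capitals. They are chr9:37034266-37034515 (minus strand) for PAX5, chr2:114036499-114036748 (minus) for PAX8, chr7:127258197-127258446 (minus) for PAX4 and chr2:223163718-223163967 (minus) for PAX3.
PAX5: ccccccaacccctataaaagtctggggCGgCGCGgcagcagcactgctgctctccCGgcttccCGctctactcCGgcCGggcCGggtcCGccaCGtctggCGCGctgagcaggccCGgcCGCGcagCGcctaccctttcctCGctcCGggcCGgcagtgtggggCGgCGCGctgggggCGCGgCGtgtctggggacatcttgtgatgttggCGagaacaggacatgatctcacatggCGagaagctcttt
PAX8: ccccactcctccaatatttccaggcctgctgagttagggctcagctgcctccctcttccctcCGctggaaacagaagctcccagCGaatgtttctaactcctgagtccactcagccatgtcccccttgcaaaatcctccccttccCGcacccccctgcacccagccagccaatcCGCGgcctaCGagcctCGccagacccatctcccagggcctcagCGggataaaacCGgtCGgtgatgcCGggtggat
PAX4: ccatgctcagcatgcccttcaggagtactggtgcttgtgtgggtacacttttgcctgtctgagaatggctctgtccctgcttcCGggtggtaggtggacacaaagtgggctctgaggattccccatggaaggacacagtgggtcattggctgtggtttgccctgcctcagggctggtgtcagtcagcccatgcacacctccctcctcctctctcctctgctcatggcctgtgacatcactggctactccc
PAX3: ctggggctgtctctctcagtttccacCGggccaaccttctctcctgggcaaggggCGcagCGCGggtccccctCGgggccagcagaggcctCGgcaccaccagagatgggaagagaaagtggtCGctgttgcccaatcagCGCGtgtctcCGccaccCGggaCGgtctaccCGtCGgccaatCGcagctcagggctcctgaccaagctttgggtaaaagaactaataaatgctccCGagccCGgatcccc

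The covered starts did not share a CpG content. The PAX5 stretch holds 27 CpGs, the PAX8 stretch 11 and the PAX4 stretch 1, and the uncovered PAX3 stretch holds 17. The median over 19509 coding promoters was 18, and 2.82% of them had fewer CpGs than PAX4. The 6-letter TATA motif TATAAA, searched on both strands, occurred in 1 of the 9 PAX promoters (PAX5) and in 9.26% of all promoters. CCAAT occurred in 7 of 9 and in 34.1% of all, and GGGCGG in 3 of 9 and in 59.6%. A segment is far longer than these stretches, so the data place the start in a domain and say nothing of single motifs.

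**Figure D1:**
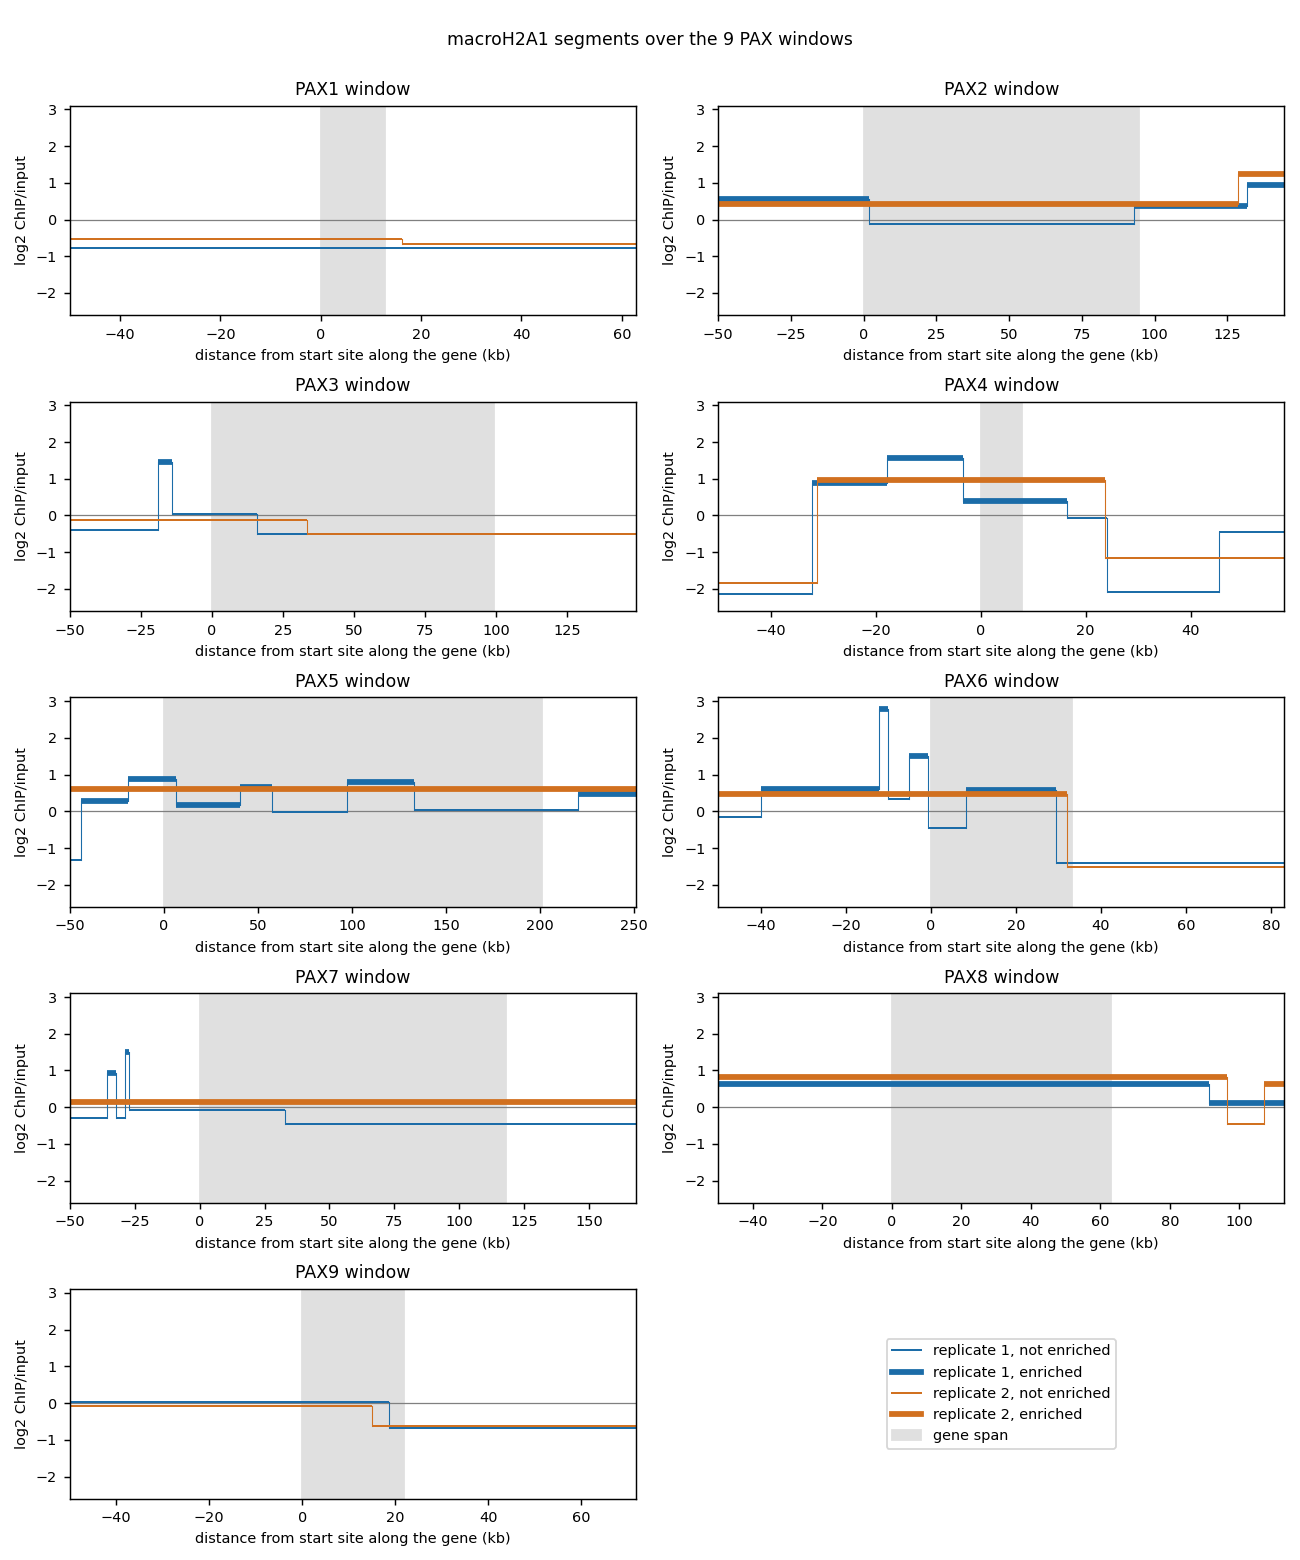
Log2 ratio of ChIP over input (vertical axis) against distance from the annotated start in kb along the gene (horizontal axis) for the 9 PAX windows. Lines are segments of replicate 1 (blue) and replicate 2 (orange), drawn thick where enriched and drawn across any gaps inside a segment; grey marks the gene span. Both replicates run thick over all of PAX8 and over PAX4, and neither does anywhere over PAX1 or PAX9.

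PAX2, PAX5 and PAX8, which form 1 subfamily, were the 3 genes whose windows lay above 0 in both replicates. Among all windows 19.8% did so, and the 3 of 9 are set against that share as a description. Over gene spans without flanks the genes above 0 in both replicates were PAX4, PAX5, PAX6 and PAX8, so PAX2 and the grouping by subfamily depend on the flanks. The means of these 3 windows ran from 0.36 to 0.64, and those of the other 6 from -0.68 to -0.08. The same 3 genes had at least 50% of the window covered, against 21% of all windows. Of them PAX8 alone kept that share when enriched segments needed a log2 ratio above 0.5. PAX5 lost it at a −log10 p of at least 5, PAX2 and PAX5 lost it with 20-kb flanks, and replicate 2 alone gave 6 genes. No share of all windows is given for the counts at these other settings, nor of all gene spans for those above 0. The median PAX window stood at -0.25 with 42.9% covered, and the median of all windows at -0.58 with 21.4% covered. The order of the 2 covered shares changed with the setting: the PAX median was 3.55% against 0 for all genes over gene spans, but 0 against 7.34% with a log2 ratio above 0.5, and 23.0% against 25.2% with 100-kb flanks. PAX windows below 0 in both replicates numbered 5, where 73.5% of all windows lay there, and PAX7 alone had opposite signs, as 6.67% of all windows did.

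**Figure D2:**
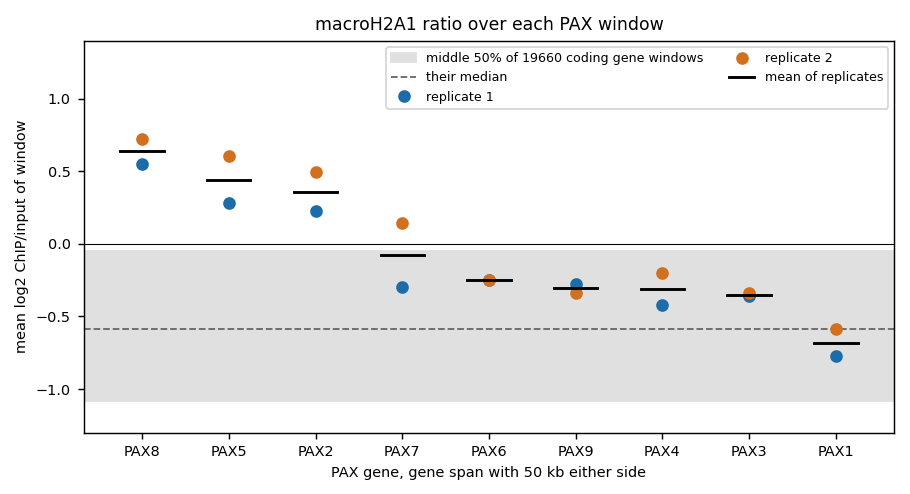
Mean log2 ratio of each PAX window (vertical axis) in replicate 1 (blue) and replicate 2 (orange), with the mean of both as a bar, ordered from high to low (horizontal axis). The grey band is the middle 50% of all coding gene windows and the dashed line their median, -0.58. The PAX8, PAX5 and PAX2 points all lie above 0, and the PAX1 mean is the one below the dashed line.

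In order of the mean, PAX8 stood first, followed by PAX5, PAX2, PAX7, PAX6, PAX9, PAX4, PAX3 and PAX1. The gaps between PAX6 (-0.25), PAX9 (-0.31), PAX4 (-0.31) and PAX3 (-0.35) were smaller than the replicate SD of PAX4 (0.16), so their order carries no weight. PAX7 (-0.08, SD 0.31) overlapped its lower neighbours and stayed below PAX2 in both replicates. Replicate 2 gave the higher value for 7 of the 9 genes, as it did for 61.4% of all windows.

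PAX8, which controls thyroid and kidney development, was the most evenly covered. Its window had a log2 ratio of 0.55 in replicate 1 and 0.72 in replicate 2 (0.64 ± 0.12, SD, n = 2), and 94.0% of all coding gene windows lay lower. The gene (chr2:113973574-114036498, hg19, minus strand) lay whole inside an enriched segment in each replicate. That segment was 217 kb long at 0.62 in replicate 1 (chr2:113945185-114162384) and 195 kb long at 0.81 in replicate 2 (chr2:113940076-114134949). Its ends differed by 5.11 kb on the downstream side and by 27.4 kb on the upstream side. Among enriched segments it was long but not strong: 96.8% and 90.1% of those in replicates 1 and 2 were shorter, whereas 32.6% and 46.8% were weaker. All 6 coding transcript starts and 100% of exon bases were covered. PSD4, an exchange factor for ARF6 that lies downstream of PAX8, was covered over 79.7% of its span at 0.42 ± 0.12.

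PAX5, the factor that commits cells to the B lineage, lay in enriched sequence throughout in replicate 2 and in pieces in replicate 1. Its window stood at 0.28 in replicate 1 and 0.60 in replicate 2 (0.44 ± 0.23, SD, n = 2). In replicate 2 a single segment of 421 kb at 0.60 spanned the window of 301 kb around the gene (chr9:36833266-37034265, minus strand). In replicate 1 the same window was cut into 9 segments. The start of the gene lay in one of 25.6 kb at 0.88, and a further segment of 35.8 kb inside the gene reached 0.79. Stretches of the gene at -0.03 and 0.03 were not enriched. Covered bases therefore made up 55.8% of the window and 46.5% of the gene span, set by replicate 1. All 7 coding starts were covered but only 19.2% of exon bases. At the upstream end of the window replicate 1 was at -1.32, and replicate 2 did not change there.

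PAX2, needed for kidney, optic nerve and inner ear, was covered on both flanks, but its gene span was enriched almost only in replicate 2. Its window stood at 0.23 in replicate 1 and 0.49 in replicate 2 (0.36 ± 0.19, SD, n = 2). The upstream flank was at 0.57 and 0.42 and the downstream flank at 0.51 and 0.69, each covered to 100%. The gene span (chr10:102495153-102589701, plus strand) was at -0.09 in replicate 1 and 0.42 in replicate 2, with 3.55% covered. Replicate 1 left enrichment 1.75 kb after the annotated start and entered it again at 92.9 kb, near the end of the 94.5-kb gene, whereas a single segment of replicate 2 ran across. The annotated start lies 10186 bases before that of the canonical transcript, which fell in the replicate 1 segment at -0.11. Only 1 of the 5 coding transcript starts was therefore covered, with all 5 enriched in replicate 2. Both replicates showed a stronger segment downstream, from 132 kb after the start at 0.95 in replicate 1 and from 129 kb at 1.25 in replicate 2.

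PAX4 and PAX6 had windows below 0 and gene spans above it, and each sits beside strongly depleted sequence. PAX4, a factor of pancreatic beta cell development, had a window value of -0.42 in replicate 1 and -0.20 in replicate 2 (-0.31 ± 0.16, SD, n = 2). Its gene span of 7.85 kb (chr7:127250346-127258196, minus strand) stood at 0.41 and 0.96 and was covered to 100%, with all 3 coding starts. The gene lay in an island of enrichment that began 32.1 kb before the start in replicate 1 and 31.2 kb before it in replicate 2. The island ended 16.4 and 23.7 kb after the start. Its upstream edge thus differed by 0.88 kb between replicates and its downstream edge by 7.29 kb. In replicate 1 it was made of 3 segments, of which the strongest, at 1.57, lay upstream of the start.

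Of the 4 coding genes that share the PAX4 window, 3 lay far below 0 in both replicates. SND1, which encodes a widely expressed nuclease and co-regulator, begins 34.1 kb upstream and had a log2 ratio of -2.09 and -1.83 over its span. ARF5, a small GTPase of membrane traffic, and GCC1, a Golgi protein, lay downstream at -2.09 in replicate 1 and -1.16 in replicate 2. None of these 3 genes had a covered base. FSCN3, a testis fascin between PAX4 and ARF5, differed in sign between replicates and stood at -0.54 and 0.36 with 3.90% covered. With 20-kb flanks in place of 50 kb the PAX4 window stood at 0.64, so its sign depends on how much of these neighbours is counted.

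PAX6, the master gene of eye development, had an enriched span whose downstream edge was found in both replicates. Its window stood at -0.25 in both replicates (-0.25 ± 0.002, SD, n = 2), and the gene span (chr11:31806327-31839509, minus strand) at 0.09 and 0.40 with 64.0% covered. Enrichment ended 29.5 kb after the start in replicate 1 and 32.0 kb after it in replicate 2, inside the 33.2-kb gene, and the edges were 2.48 kb apart. Beyond it the downstream flank was at -1.41 and -1.50. That flank had no covered base and lies inside ELP4, which encodes a subunit of the Elongator complex and overlaps the last part of PAX6. Over its whole span of 281 kb, ELP4 stood at -1.14 and -1.46 with 3.91% covered.

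The start of PAX6 was read differently by the replicates. In replicate 1 it lay in a segment of 8.91 kb at -0.46, bordered on the upstream side by a 4.46-kb segment at 1.51. In replicate 2 it lay in a 99.8-kb segment at 0.47. A short segment of 2.27 kb centred 11 kb upstream reached 2.78 in replicate 1, and 99.2% of the enriched segments of that replicate were weaker. Of the 45 distinct coding transcript starts annotated for PAX6, 21 were covered, all between 9.16 and 14.7 kb after the annotated start and beyond the segment at -0.46. Replicate 2 had all 45 in enriched sequence. The gene model ENSG00000285283, which overlaps the PAX6 start on the other strand, was covered to 53.1% at 0.24 ± 0.12.

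**Figure D3:**
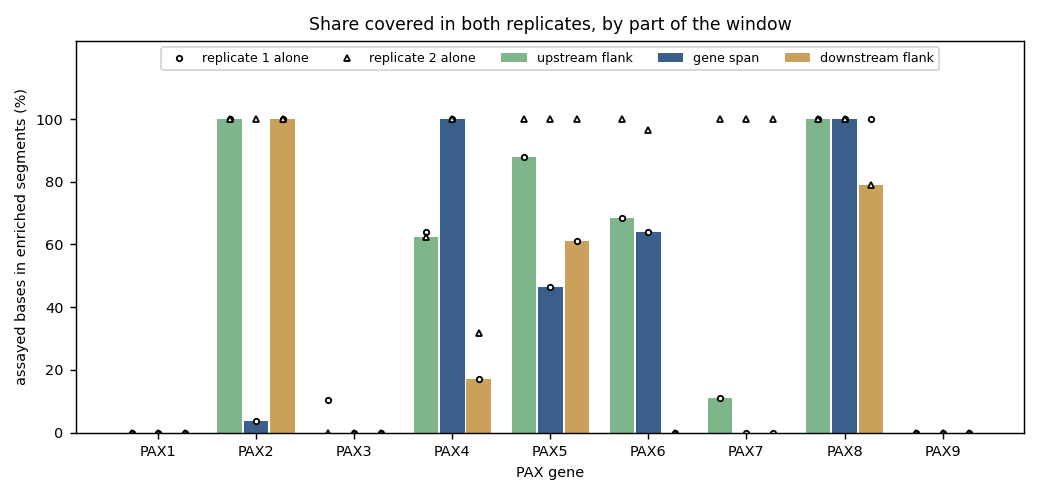
Percent of assayed bases in enriched segments (vertical axis) for the upstream flank, gene span and downstream flank of each PAX gene (horizontal axis). Bars are bases enriched in both replicates, circles replicate 1 alone and triangles replicate 2 alone. PAX4 and PAX8 spans reach 100%, the PAX2 span is at 3.55% between fully covered flanks, and PAX7 is at 100% in replicate 2 alone.

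Gene spans covered to at least 50% numbered 3 of 9 (PAX4, PAX6 and PAX8), against 19.3% of all gene spans. Annotated starts inside an enriched segment of both replicates numbered 4 of 9 (PAX2, PAX4, PAX5 and PAX8), against 21.4% of 18464 assayed starts. With the start of the canonical transcript, PAX2 dropped out and 3 remained, and with a log2 ratio above 0.5 only PAX5 and PAX8 were counted. PAX8 alone therefore passed by window, by span and by either start. The 21.4% holds for annotated starts at a log2 ratio above 0, and no share of all starts is given for the other settings.

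PAX7 and PAX3 specify muscle progenitors and neural crest, and neither was covered in its gene. PAX7 (chr1:18957340-19075360, plus strand) was the one gene whose replicates gave windows of opposite sign, -0.30 in replicate 1 and 0.14 in replicate 2 (-0.08 ± 0.31, SD, n = 2). Its replicate SD was above the 0.11 that was the median over all windows, and also above 0.299, a value near the top of their spread. In replicate 2 a segment of 317 kb at 0.14 covered the whole window, and only 0.36% of enriched segments of that replicate were weaker. In replicate 1 the start lay at -0.07 and the rest of the gene at -0.46. The bases enriched in both, 2.50% of the window, came from 2 short segments of replicate 1 centred 28 and 34 kb upstream.

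PAX3 (chr2:223064606-223163717, minus strand) had a window value of -0.36 in replicate 1 and -0.34 in replicate 2 (-0.35 ± 0.02, SD, n = 2). Its start was near 0, at 0.05 and -0.11, and both replicates stepped down inside the gene to -0.52 and -0.51. The step lay 15.8 kb after the start in replicate 1 and 33.4 kb after it in replicate 2. Replicate 1 alone had a 4.99-kb segment at 1.46 centred 16 kb upstream, at the gene model ENSG00000288658, so no base was covered in both.

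PAX1 and PAX9, which pattern the vertebral column, pharyngeal pouches and teeth, had no enriched base in either replicate. With PAX3 they were the 3 windows without a covered base, a state shared by 28.1% of all windows. PAX1 (chr20:21686297-21699119, plus strand) stood at -0.78 in replicate 1 and -0.58 in replicate 2 (-0.68 ± 0.14, SD, n = 2), and 44.2% of all windows lay lower. The gene lay in a segment of 1144 kb at -0.78 in replicate 1 and in one of 193 kb at -0.53 in replicate 2, and the window reached a further replicate 2 segment at -0.67. The nearest covered base was 581 kb upstream and 1068 kb downstream of its start.

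PAX9 (chr14:37126773-37148567, plus strand) stood at -0.28 in replicate 1 and -0.34 in replicate 2 (-0.31 ± 0.04, SD, n = 2). The start lay at 0.03 and -0.08. Both replicates then stepped down to -0.67 and -0.63 near the end of the 21.8-kb gene, at 18.6 and 15.0 kb after the start. The lower level ran on into SLC25A21, a mitochondrial carrier whose span overlaps the end of PAX9. Only 51.4 kb of the 495 kb of SLC25A21 lies in the PAX9 window. Over its whole span SLC25A21 was covered to 9.62% at -0.19 ± 0.05. The nearest covered base lay 282 kb downstream and 555 kb upstream. The windows of PAX1 and PAX9 were thus both uncovered, but the level over PAX9 was the higher in each replicate.

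GC content and gene density of the windows varied beside these values. PAX2, PAX7, PAX8 and PAX5 had the highest window GC, at 50.2%, 50.2%, 49.4% and 48.3%, and PAX4 followed at 45.2%. The other 4 lay between 40.4% and 43.0%. The windows of PAX1, PAX2, PAX5 and PAX7 held no other protein-coding gene. Other coding genes filled 83.4% of the PAX6 window, 42.2% of PAX9, 34.7% of PAX4, 26.6% of PAX8 and 3.02% of PAX3. The part of GC content and of neighbouring genes in the ratios was not tested.

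Genes linked to PAX by a shared network, by homeodomain class or by tissue were measured in windows of the same kind from 3 lists. These lists were chosen with earlier results of these data known. The first held EYA1 to EYA4, DACH1, DACH2 and homeobox genes such as SIX2 and SIX3, whose proteins form a regulatory network with PAX factors in eye, ear, kidney and muscle. Of these 12 genes, 4 had windows above 0 in both replicates and 5 below it (7 were above 0 in replicate 1 alone), where 19.8% of all windows lay above 0 in both and 73.5% below it. The median was -0.08 with 37.8% covered. SIX2, a factor of kidney progenitors, was highest at 0.75 and 1.01 in the 2 replicates, followed by SIX3, a forebrain and eye factor, at 0.30 and 0.55. SIX5 was lowest at -0.90 and -0.75, next to EYA3 at -0.80 and -0.74. The windows of SIX2 and SIX3 overlap, so their values are not independent.

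The second list held 32 homeobox genes of the paired class that lack a paired domain. Of these, 15 lay above 0 in both replicates and 15 below it, against 19.8% and 73.5% of all windows, with a median of -0.08 and 48.7% covered. HOPX, an unusual homeodomain protein that does not bind DNA, was highest at 1.16 and 1.25. ESX1, on chromosome X, followed at 1.00 and 1.01. GSC2 was lowest at -1.58 and -1.25, next to SEBOX at -1.46 and -1.25. The list holds 2 genes of chromosome X, and the list of EYA and DACH genes 1.

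Regulators and products of the tissues where PAX genes act stood higher than the PAX genes themselves by the median, at 0.19 with 46.7% covered. Of these 45 genes, 25 lay above 0 in both replicates and 16 below it, against 19.8% and 73.5% of all windows. MEOX1, a somite homeobox gene, was highest at 0.99 and 1.50, followed by LHX2, an eye and forebrain factor, at 1.08 and 1.32. TCF3, a broadly expressed partner in B cell commitment, was lowest at -1.44 and -1.37. By tissue, the genes above 0 in both replicates were 7 of 8 for sclerotome, pharynx and teeth, 6 of 8 for muscle and neural crest and 5 of 6 for pancreas. They were 3 of 6 for thyroid, 2 of 5 for eye, 2 of 6 for B cells and 0 of 6 for kidney and ear, to be read against the same 19.8%. The muscle genes MYF5 and MYF6 are neighbours with nearly the same window, so they count as 2 of the 6 without being independent. Of the PAX genes themselves, PAX2, PAX5 and PAX8 lay above 0 in both replicates. PAX1, PAX3, PAX4, PAX6 and PAX9 lay below it in both, and PAX7 differed in sign. These counts are descriptions without a test. When enriched segments needed a log2 ratio above 0.5, the median covered share was 12.9%, 24.8% and 16.1% for the 3 lists in the order given, and over gene spans alone it was 0, 41.4% and 6.90%.

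**Figure D4:**
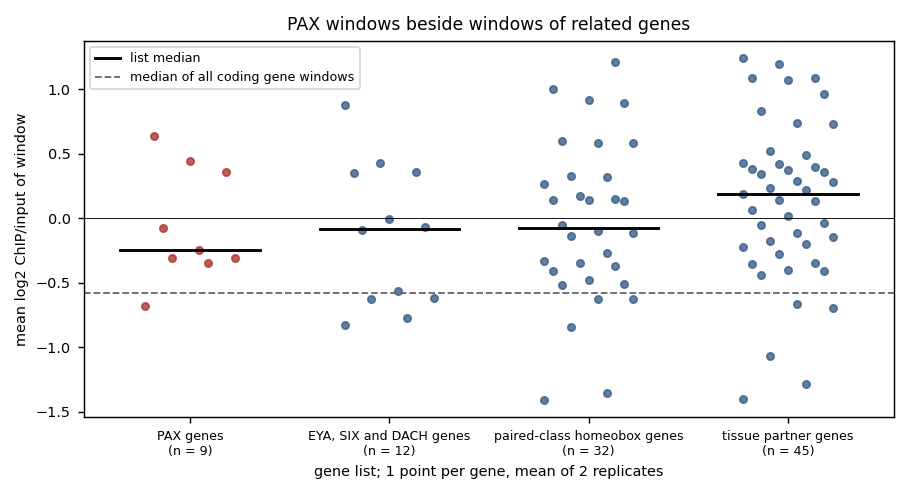
Mean log2 ratio of each window (vertical axis, mean of 2 replicates) for the 9 PAX genes (red) and the 3 lists of related genes (blue), 1 point per gene, with list medians as bars and the median of all coding gene windows dashed (horizontal axis: list). All 4 medians, from -0.25 to 0.19, lie above the dashed line at -0.58.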

How the data were processed

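MacroH2A1 ChIP-seq of IMR90 cells comprised 2 ChIP replicates and 2 inputs. The submitters' processing notes name CASAVA 1.7 and build hg19; the sources used here do not name the aligner, the segmentation program or the scaling of ChIP to input. Each replicate has its own segmentation, in which the authors give every segment a log2 value (ChIP against input) and a −log10 p-value; the base of the log was taken from the values, and the sidedness of the p-value is not documented. Inputs have no file of their own here, and depth is unknown.

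Windows were GENCODE release 44 gene spans mapped to GRCh37 plus 50 kb. Values are base-weighted means over blocks of both replicates, for windows at least 50% assayed; segments listed at 0 for both values, chromosome Y and the mitochondrial sequence were left out. Python 3.11.15, numpy 2.4.6 and pysam 0.24.0 were used. Window values equalled a base-by-base count in 100 of 100 made-up windows. Named genes were all PAX genes, coding genes overlapping their windows, and the 2 highest and 2 lowest of each list by mean log2 ratio; 1 gene that this rule names is not reported here. Members and lists were chosen with earlier results of these data known. Replicates, thresholds, gaps, flanks, denominators and start sites were varied.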

Additional observations from a re-analysis of the deposited data

How the results depend on the processing

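Of 34 recomputed counts and medians of the PAX family, 27 stayed within 1.5 times the count or within the spread of the replicates. That rule is wide and ignores which genes are counted. It passed a rise of enriched starts from 4 to 6 in replicate 2 alone, which added PAX6 and PAX7. It also passed the 3 gene spans covered to at least 50%, which were PAX4, PAX6 and PAX8, where the windows were PAX2, PAX5 and PAX8. With a single replicate, windows covered to at least 50% numbered 3 to 6 in place of 3, and the median covered share was 42.9% to 63.3% in place of 42.9%; the 6 came from replicate 2, which added PAX4, PAX6 and PAX7. With a log2 ratio above 0.5, 1 window (PAX8) passed, 2 starts in place of 4 (PAX5 and PAX8), and the median covered share was 0. That median was 3.55% over gene spans alone and 23.0% with 100-kb flanks. Windows above 0 were 3 or 4 in every setting run, but over gene spans alone they were PAX4, PAX5, PAX6 and PAX8, without PAX2, and with 20-kb flanks only PAX4 and PAX8 were covered to at least 50%. The mean log2 ratio changed sign for PAX4 over the gene span (0.68) and with 20-kb flanks (0.64), for PAX6 over the gene span (0.25) and for PAX7 in replicate 2 alone (0.14, against -0.30 in replicate 1 alone). These shifts follow from which bases or samples are counted. Apart from spans covered to at least 50%, no share of all genes is given for the counts at these other settings. The start of the canonical transcript, which gave 3 starts, was chosen after seeing the data. PAX8 passed in every setting run for windows, spans and starts. No paired analysis was possible because the inputs have no values of their own and the ChIP samples form 1 group. Depth is unknown, segments average over long stretches, and 2 replicates give a rough SD.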
